A study of Mus musculus with 4 samples.

Results

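Imprinted gene domains were examined for Rad21 peaks in v-Abl transformed pro-B lines of the mouse, WT or lacking 53BP1. The members were 9 genes in 7 domains: H19 and Igf2, Dlk1 and Meg3, Igf2r, Peg3, Gnas, Mest, and Peg10. Each domain was a fixed stretch of mm9, called its listed positions here, and every peak that overlapped these positions or the 150 kb on either side was taken. The domain windows held 25 and 24 peaks in the WT libraries and 28 and 22 in the knockout libraries, of 21971, 23029, 25145 and 22792 peaks in the lists. Touching or overlapping peaks of the 4 lists were joined to 1 region, and 35 of 34743 regions lay in the windows. The rule used positions alone, not peak values.

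Chromatin immunoprecipitation with sequencing (ChIP-seq) of Rad21 had been done on 2 WT and 2 53BP1 knockout libraries, each with its own list of broad peaks. All 4 came from a v-Abl transformed pro-B line, early B lineage cells transformed by a viral kinase, that was RAG1 deficient and carried Emu-Bcl2, a transgene whose product keeps arrested cells alive. All were treated for 4 days with 3 uM STI-571, an inhibitor of that kinase which arrests the cells. Whether replicates were separate cultures or clones is not stated, and their spread may be technical. Titles and protocol name a Rad21 antibody while the treatment field names one against 53BP1, and the libraries are called Rad21 libraries after the former. Peak lists measure neither expression nor 53BP1, so cell type and genotype rest on the labels.

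Imprinted genes are expressed from the copy inherited from only the mother or only the father. Each imprinted domain is governed by a control region whose DNA methylation differs between the parental copies. At H19 and Igf2 the textbook case is an insulator: the zinc finger protein CTCF binds the unmethylated maternal control region and separates Igf2 from enhancers beyond H19. Cohesin, the ring complex of which Rad21 is a subunit, extrudes chromatin loops and halts at many CTCF sites, so Rad21 peaks often mark loop ends. The role of CTCF is best known for H19 and Igf2 and is less well established for several of the other domains. CTCF itself was not measured here, and the peak lists do not separate the parental copies.

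The sequences under the peaks were not used here, because no mm9 genome was used. Promoters were taken instead from RefSeq (build GRCm38.p6), where 7 of the 9 members had at least 1 entry, 16 entries in all. H19 and Peg10 had none. Shown are Meg3, whose domain held a strong peak at its listed positions, and Mest and Peg3, whose windows held no peak in any library. Each runs 5′ to 3′ on the strand of the gene, and capitals mark CCCTC, the letters after which CTCF is named, or GAGGG, the same letters on the other strand. The coordinates are GRCm38.p6 and cannot be set against the mm9 peak positions.
Meg3, chr12:109540746-109541045, plus strand: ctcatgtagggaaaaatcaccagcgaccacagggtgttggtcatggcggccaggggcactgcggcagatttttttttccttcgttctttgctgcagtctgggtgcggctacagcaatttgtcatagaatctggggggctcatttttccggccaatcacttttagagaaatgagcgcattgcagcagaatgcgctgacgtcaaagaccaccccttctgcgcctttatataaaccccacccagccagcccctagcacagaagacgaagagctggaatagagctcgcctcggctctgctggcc
Mest, chr6:30733256-30733555, plus strand: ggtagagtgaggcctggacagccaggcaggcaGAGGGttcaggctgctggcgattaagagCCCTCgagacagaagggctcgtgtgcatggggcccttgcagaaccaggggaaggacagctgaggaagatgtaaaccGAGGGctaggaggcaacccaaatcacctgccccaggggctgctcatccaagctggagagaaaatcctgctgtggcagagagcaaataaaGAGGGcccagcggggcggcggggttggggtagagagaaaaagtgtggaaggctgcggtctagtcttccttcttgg
Peg3, chr7:6730370-6730669, minus strand: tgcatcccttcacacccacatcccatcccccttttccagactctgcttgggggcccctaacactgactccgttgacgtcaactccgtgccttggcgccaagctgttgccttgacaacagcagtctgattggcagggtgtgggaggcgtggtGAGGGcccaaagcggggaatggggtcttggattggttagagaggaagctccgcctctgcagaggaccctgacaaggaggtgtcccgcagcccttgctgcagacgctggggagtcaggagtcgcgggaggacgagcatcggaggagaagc
The Meg3 stretch held 0 matches and a second Meg3 entry, not shown, held 1. The Mest stretch held 4, as did each of the other 2 Mest entries, and the only Peg3 entry held 1. CCCTC or GAGGG occurred in 13 of the 16 member entries (81.2%) and in 66% of all 32851 RefSeq promoters of the same length, so these letters are common. The 16 entries came from 7 genes, and some entries of Mest and of Gnas overlap almost entirely. They are not independent, and the 2 shares were not tested against each other. A match is a description of the letters and not a binding site.

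The lists as a whole differed in strength, which touches every comparison below. The deposited −log10 q, the significance of a peak within its own list, reached 5 for 27.0% and 27.7% of all peaks in WT, 25.9% in knockout replicate 1 and 16.5% in knockout replicate 2. In the domains, 8 of 25 and 8 of 24 WT peaks reached it, against 9 of 28 in knockout replicate 1 and 2 of 22 in knockout replicate 2. Knockout replicate 2 therefore stood apart from the other 3 libraries, and values without it stand beside the comparison of genotypes. Read depth is unknown, and its part in these differences was not tested. Fold enrichments are the authors' own values, and to compare lists each was turned into its percentile, the share of peaks in its own list with a lower fold.

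Cohesin occupancy divided the 7 domains. Rad21 peaks were dense at H19 and Igf2, Dlk1 and Meg3, and Gnas, near the median of equal-length windows at Igf2r, and not called at all in the windows of Peg3, Mest and Peg10. Over all 7 domains the lists held a mean of 9.86 peaks per Mb, against 9.02 over chromosomes 1 to 19 and X. Over the 4 domains with peaks the mean was 15.86. These 4 were picked for holding peaks, while the chromosomes include empty stretches, so their higher mean follows from the choice. By domain, the mean density was 23.66 peaks per Mb at H19 and Igf2, 17.22 at Gnas, 15.51 at Dlk1 and Meg3 and 7.09 at Igf2r.

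**Figure D1:**
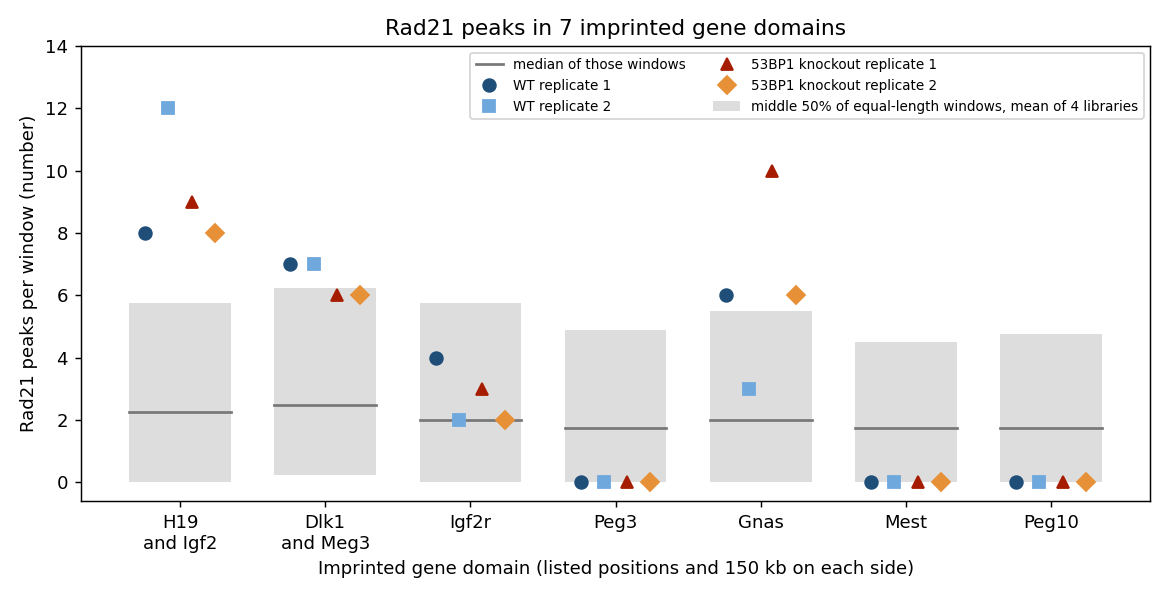
Rad21 peaks (vertical axis, number) in the window of each domain (horizontal axis), 1 symbol per library; the grey box runs from the lower to the upper quartile of adjoining windows of the same length over the chromosomes (mean of 4 libraries) and the grey line is their median. H19 and Igf2 lie above the box in all 4 libraries, with 8 to 12 peaks, and Peg3, Mest and Peg10 lie at 0.

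The window of H19 and Igf2, the domain of the maternally expressed long non-coding RNA H19 and the paternally expressed growth factor Igf2, held 8 and 12 peaks in WT against 9 and 8 in the knockout. Adjoining windows of that length (391 kb) held a median of 2.25 peaks per library and an upper quartile of 5.75, so each library was above the quartile. Gnas, the gene of the stimulatory G protein alpha subunit, had 6 and 3 peaks in WT against 10 and 6 in the knockout, where windows of its length had a median of 2 and an upper quartile of 5.5. WT replicate 2 was alone in lying below that quartile. Dlk1, a paternally expressed Notch-like ligand that restrains adipocyte differentiation, and Meg3, a maternally expressed long non-coding RNA, shared a window with 7 and 7 peaks in WT against 6 and 6 in the knockout. The upper quartile there was 6.25, and counts of 6 and 7 lie next to it on either side. The medians and quartiles of windows, here and below, are of counts averaged over the 4 libraries. The domain counts set against them are of single libraries.

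Igf2r encodes the receptor that carries Igf2 to lysosomes and is expressed from the maternal copy. Its window had 4 and 2 peaks in WT against 3 and 2 in the knockout, near the median of 2 for windows of its length. In Peg3 (a zinc finger protein gene), Mest (a hydrolase-fold protein gene) and Peg10 (derived from a retrotransposon), which are all expressed from the paternal copy, 0 peaks were called in each of the 4 libraries. Windows with 0 peaks in every library were common: 27.8% of windows of the length of the Peg3 window, 28.9% for Mest and 28.7% for Peg10. An empty window is therefore no result about these 3 genes alone.

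The central Rad21 site of the H19 and Igf2 domain lay close to H19. Genes are ordered here as in RefSeq, with H19 at the lower and Igf2 at the upper end of the listed positions (chromosome 7, 149761000 to 149852000). The site, at 149765924 to 149766916, began 4.9 kb above the lower end, beyond the 2617 bp that RefSeq gives as the length of H19. As background, the control region lies upstream of H19, on the side facing Igf2; the peak was not placed on an mm9 annotation. Its folds were 4.34 and 4.05 in WT against 4.46 and 3.75 in the knockout. In percentiles these were 61.3 and 49.5 in WT against 62.2 and 55.1 in the knockout, a range in which the genotypes overlapped. The −log10 q was 7.38 and 6.75 in WT, 8.01 in knockout replicate 1 and 3.53 in knockout replicate 2. This was the strongest shared region of the domain by its lowest percentile, yet by fold it ranked near the middle of each list. By −log10 q it stood higher in both WT libraries and in knockout replicate 1. It passed 5 there, as did only 27.0%, 27.7% and 25.9% of all peaks in those lists.

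A second, weaker region followed at 149767455 to 149767937, 6.5 kb above the lower end. It was called in WT replicate 2 and in both knockout libraries, with folds of 3.11, 3.31 and 3.37, at percentiles from 3.2 to 28.0. WT replicate 1 had no peak there, so the region did not follow genotype. The only other peak at the listed positions was 35.5 kb above their lower end in WT replicate 2 alone (fold 3.88). No list held a peak in the remaining stretch up to 149852000, the end where Igf2 lies.

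Rad21 sites flanked the domain on both sides. Below H19, where RefSeq places Nctc1, Mrpl23, Tnnt3 and Lsp1, regions of all 4 libraries lay 36.6, 52.3, 76.8 and 133.6 kb from the listed positions. The widest of the domain was the one at 76.8 kb, 149682717 to 149684231, with 1274 and 1376 bp covered in WT versus 1371 and 1008 bp in the knockout. Beyond Igf2, towards Ins2, a region at 149857944 to 149858502 was called in all libraries, 5.9 kb above the listed positions, where folds were 3.37 and 3.89 in WT against 3.82 and 3.75 in the knockout. A neighbour at 149861467 to 149861968 was called in 3 libraries and not in knockout replicate 2. Of 13 regions in the window, 6 (46.2%) were called in all 4 libraries, where the share over all regions was 41.7%. In 1 library alone 4 (30.8%) were called, against 30.7% of all regions. A further 3 were called in 3 libraries, and 0 followed genotype. Over all regions, 3.05% were called in both knockout lists alone and 2.19% in both WT lists alone. With 13 regions, none of these shares is a result about the domain.

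**Figure D2:**
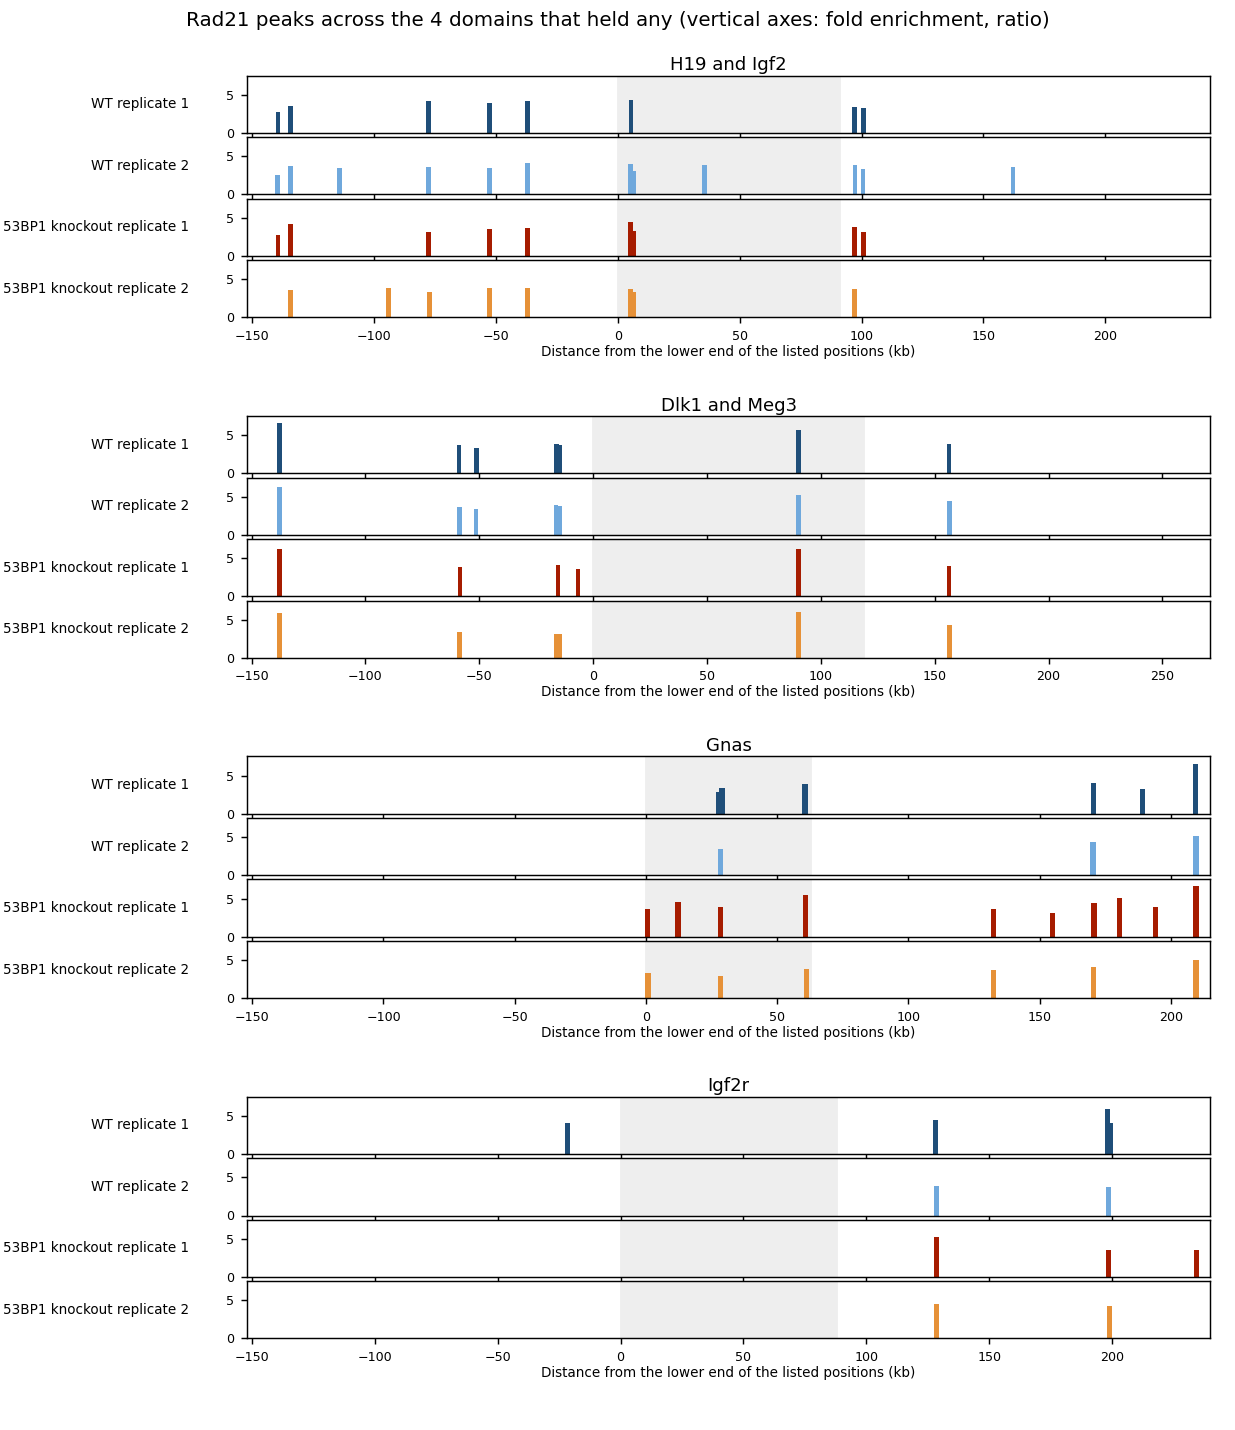
Rad21 peaks across the 4 domains with any, as distance from the lower end of the listed positions (horizontal axis, kb) and fold enrichment (vertical axis, ratio), 1 row per library; grey marks the listed positions and narrow peaks are drawn wider than they are. The peak at 4.9 kb in H19 and Igf2 and the peak at 89.9 kb in Dlk1 and Meg3 appear in every row, and the listed positions of Igf2r hold none.

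By the lowest percentile over the 4 libraries, Dlk1 and Meg3 had the 2 strongest regions of all 7 domains. Inside the listed positions (chromosome 12, 110691000 to 110810000) a single region was called, at 110780914 to 110781420, towards the end where RefSeq order puts Meg3. Folds were 5.74 and 5.25 in WT against 6.21 and 6.01 in the knockout, at percentiles 94.2 and 89.7 in WT against 95.3 and 99.6 in the knockout. Both knockout percentiles were above both WT percentiles, by a mean of 5.5 points. The region was narrow, with 453 and 443 bp covered in WT versus 497 and 389 bp in the knockout, and its −log10 q was 6.17 and 5.09 in WT against 6.36 and 7.12 in the knockout. The highest of the 4 values was that of knockout replicate 2.

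The strongest shared region of that window lay far below Dlk1, at 110552905 to 110553454, 137.5 kb from the listed positions. It had folds of 6.65 and 6.22 in WT against 6.17 and 5.84 in the knockout, and percentiles from 95.1 to 99.4. Closer to Dlk1, a wide region at 110674442 to 110676570 ended 14.4 kb below the listed positions. It consisted of 2 peaks in both WT libraries and in knockout replicate 2, and of a single peak of 2045 bp in knockout replicate 1, where the covered length in the others was 1408, 1116 and 1349 bp. A further shared region lay 36.7 kb above the listed positions, on the side of the imprinted non-coding RNA Rian, at 110846722 to 110847733, with covered lengths of 999 and 509 bp in WT versus 417 and 334 bp in the knockout. Of 7 regions in the window, 5 (71.4%) were called in all 4 libraries, where the share over all regions was 41.7%. This difference rests on 7 regions and was not tested.

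The Gnas window was uneven. The 150 kb below the listed positions (chromosome 2, 174109000 to 174172000) held 0 peaks in all 4 libraries, while the 150 kb above them, towards Nelfcd, Ctsz and Tubb1, held 7 regions. Gnas is a complex gene with several promoters whose products are expressed from different parental copies. At the listed positions 1 of 4 regions was called in all libraries, where the share over all regions was 41.7%, and 4 regions are too few to compare. The shared region lay at 174136493 to 174138211, 27.5 kb above the lower end. It was the widest shared region of the domain but weak by fold. Folds were 3.37 and 3.47 in WT against 3.88 and 2.96 in the knockout, at percentiles from 5.7 to 38.0. Its −log10 q was 4.81 and 5.48 in WT against 5.22 and 2.57 in the knockout. Peaks covered 1023 and 1591 bp of it in WT versus 1604 and 1655 bp in the knockout.

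A region near the upper end of Gnas, at 174169406 to 174170579, was called in 3 libraries, with folds of 3.83 in WT replicate 1 and 5.43 and 3.83 in the knockout, and not in WT replicate 2. The strongest shared region was the outermost one, at 174318222 to 174318910, 146.2 kb above the listed positions, where folds were 6.57 and 5.14 in WT against 6.65 and 4.97 in the knockout. Its percentiles, 87.6 to 98.4, reached slightly lower than those of the strong sites of Dlk1 and Meg3 (95.1 to 99.4 and 89.7 to 99.6). Another shared region lay at 174279100 to 174280146, where folds were 4.01 and 4.38 in WT against 4.37 and 4.06 in the knockout.

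At Igf2r the listed positions themselves (chromosome 17, 12875000 to 12963000) carried 0 peaks in each library. As background, the control region of this domain is the promoter of the antisense RNA Airn inside Igf2r. The nearest site called in all 4 libraries lay above the gene, on the side of Mas1 and Mrgprh, at 13003008 to 13003701, 40.0 kb away. Its folds were 4.41 and 3.90 in WT against 5.28 and 4.49 in the knockout, with percentiles of 64.1 and 41.7 in WT against 84.1 and 87.6 in the knockout. It was at the same time narrower in the knockout, with 256 and 237 bp covered against 580 and 372 bp in WT. The next region, at 13072872 to 13074464, was wider in the knockout, with 1248 and 1316 bp against 801 and 431 bp, while its percentiles overlapped (95.7 and 29.9 in WT, 19 and 80.6 in the knockout). Below Igf2r a peak was called in WT replicate 1 alone, 21.5 kb away, and in the other 3 libraries the nearest peak lay 265.5 kb away.

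**Figure D3:**
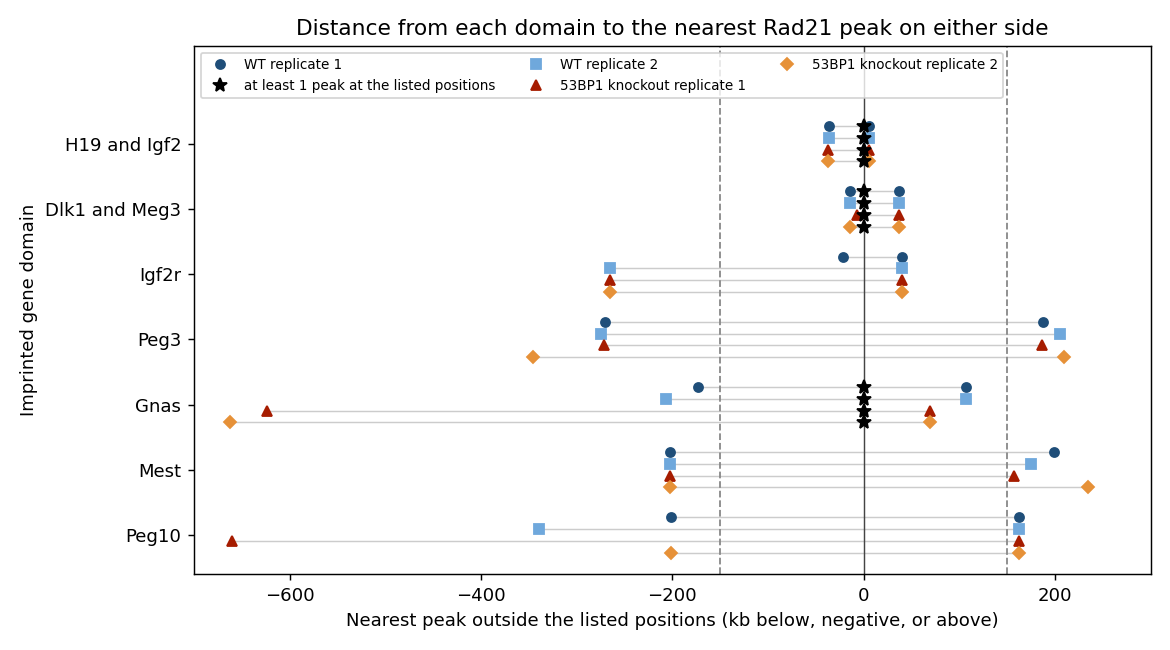
Distance in kb (horizontal axis, negative below) from the listed positions of each domain (vertical axis) to the nearest Rad21 peak outside them, 1 symbol per library; stars mark libraries with a peak at the listed positions and dashed lines the 150 kb flank. At Peg3, Mest and Peg10 all symbols lie beyond both dashed lines.

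The empty windows of Peg3, Mest and Peg10 were part of longer stretches without Rad21 peaks. Around Peg3, whose neighbours in RefSeq are Zim1, Zim2 and Usp29, the stretch free of peaks in all lists ran from 6387420 to 6871038 on chromosome 7, 483.6 kb. Around Mest, beside Copg2 and Cep41, it was 369 kb, from 30485862 to 30854885 on chromosome 6. Around Peg10, beside Sgce and Casd1, it was 377.7 kb, from 4496098 to 4873825 on the same chromosome. The median distance between neighbouring regions was 24.5 kb, and gaps at least as long as these 3 made up 2.36%, 3.24% and 3.13% of all gaps. By length, such gaps took 37.2%, 42.2% and 41.6% of the chromosomes. Peak names in each list were numbered without a break across these stretches.

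Single libraries had longer empty stretches. For Peg3 they ran from 483.9 to 580.6 kb, for Mest from 369.2 to 446.9 kb and for Peg10 from 377.7 to 836.6 kb. The nearest site above Peg10 was shared by all 4 libraries, 162.8 kb away, where folds were 5.32 and 5.31 in WT against 4.89 and 7.52 in the knockout. The site below Mest, at 30485215 to 30485861, was also shared, where folds were 4.41 and 3.88 in WT against 4.87 and 4.82 in the knockout. The edges at Peg3 were weak: the lower one was called in WT replicate 1 alone (fold 4.17) and the upper one in the first replicate of each genotype (3.66 and 3.68). At the limit of the flank, the outermost regions inside it were 146.2 kb from Gnas and 146.3 kb from Igf2r, and the first outside it were 156.9 kb from Mest, in knockout replicate 1 alone (fold 3.58), and the one 162.8 kb from Peg10.

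The genotype comparison asked whether cohesin occupied these domains differently without 53BP1. Peaks in the 7 windows numbered 24.5 ± 0.71 in WT and 25 ± 4.24 in the knockout (mean ± SD, n = 2 each), a difference of 0.5 that was smaller than the spread between knockout libraries (exact permutation test, two-sided, p = 1). With 2 libraries against 2 this test cannot give a p below 0.33, so it cannot pass 0.05. Covered length was 14321 ± 1153 bp in WT and 16226 ± 3765 bp in the knockout (exact permutation p = 0.667). Within replicate numbers, which share a prefix in the peak names, knockout minus WT was 3 peaks and 3752 bp for number 1 and −2 peaks and 57 bp for number 2. Without knockout replicate 2 the difference was 3.5 peaks and 4567 bp, and without knockout replicate 1 it was −2.5 peaks and −758 bp.

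By domain, the knockout mean was higher by 3.5 peaks at Gnas (exact permutation p = 0.667, 1 after Benjamini-Hochberg adjustment over 7 domains). It was lower by 1.5 at H19 and Igf2, by 1 at Dlk1 and Meg3 and by 0.5 at Igf2r. The Gnas difference was 5.5 without knockout replicate 2, 1.5 without knockout replicate 1, and 0 when only peaks reaching a −log10 q of 5 were counted. Without knockout replicate 2 the differences were −1 at H19 and Igf2, −1 at Dlk1 and Meg3 and 0 at Igf2r. The direction turned at H19 and Igf2 without WT replicate 2 and at Igf2r without WT replicate 1 (0.5 each), and at Dlk1 and Meg3 when only peaks reaching a fold of 4 were counted (0.5). Only at Dlk1 and Meg3 were the counts of the genotypes separate, 7 and 7 against 6 and 6 (exact permutation p = 0.33, adjusted 1). Among 6135 adjoining windows of that length, 3.67% had both knockout counts below both WT counts. Of these windows, 24% were empty in every library and could not separate, and the share in the opposite direction is not given here. The domain was singled out because its counts were separate, so the 3.67% is no test of it. The wide region below Dlk1 counted as 1 peak in knockout replicate 1 and as 2 in each of the other libraries. Counted once in every library, it would leave the counts of WT and of knockout replicate 1 equal. The separation of the counts therefore rests on how this region was split into peaks.

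Few domain regions followed genotype. Of the 35 regions, 16 (45.7%) were called in all 4 libraries, where the share over all regions was 41.7%, and 12 (34.3%) in a single library, against 30.7%. Knockout-only regions, called in both knockout lists but in no WT list, numbered 2 (5.71%), against 3.05% of all regions. WT-only regions, the reverse, numbered 1 (2.86%), against 2.19%. These shares were near the background. Both knockout-only regions belonged to Gnas. One lay at 174109596 to 174109870, 0.6 kb inside the lower end of the listed positions, with folds of 3.62 and 3.27 (−log10 q of 1.70 and 1.22), and the other at 174241147 to 174241763, 69.1 kb above the listed positions, with folds of 3.56 and 3.71 (−log10 q of 1.66 and 1.86).

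The WT-only region lay below Dlk1, at 110639386 to 110640084, with folds of 3.29 and 3.37 and a −log10 q of 1.32 and 1.60. All 3 were weak, as each list began at a −log10 q of 1.01 to 1.02. In percentiles of fold they ranged from 7.3 to 52.7. Without knockout replicate 2, 8 regions were called in the remaining knockout library and in neither WT library. Without WT replicate 1, 4 were called in WT replicate 2 and in neither knockout library. The 8 include both knockout-only regions and the 4 include the WT-only region. The others rest on a single library, and regions called in 1 of the 4 libraries made up 30.7% of all regions. The share over all regions under these rules is not given here, so the 8 and the 4 are no result about the domains.

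The strength of domain peaks relative to their lists depended on the measure. The median percentile of fold of the 16 regions was 48.9 and 41.5 in WT against 46.0 and 60.1 in the knockout. Over all 14484 regions of 4 libraries it was 60.8 and 62.9 in WT against 66.6 and 58.8 in the knockout. The domain median was thus the lower one in 3 libraries and the higher one in knockout replicate 2. Over all domain peaks the median percentile was 36.8 and 34.4 in WT against 36.7 and 57.4 in the knockout. It was again above the middle of the list only in knockout replicate 2. The share reaching a −log10 q of 5, also over all domain peaks, went the other way. It was 32% and 33.3% in WT and 32.1% and 9.09% in the knockout, against the 27.0%, 27.7%, 25.9% and 16.5% of all peaks given above. None of these differences from the whole lists was tested. For the median percentile of the 16 regions, knockout minus WT was 7.81 points (exact permutation p = 0.667). It was −2.95 for replicate number 1 and 18.6 for number 2, and −2.32 without knockout replicate 2.

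**Figure D4:**
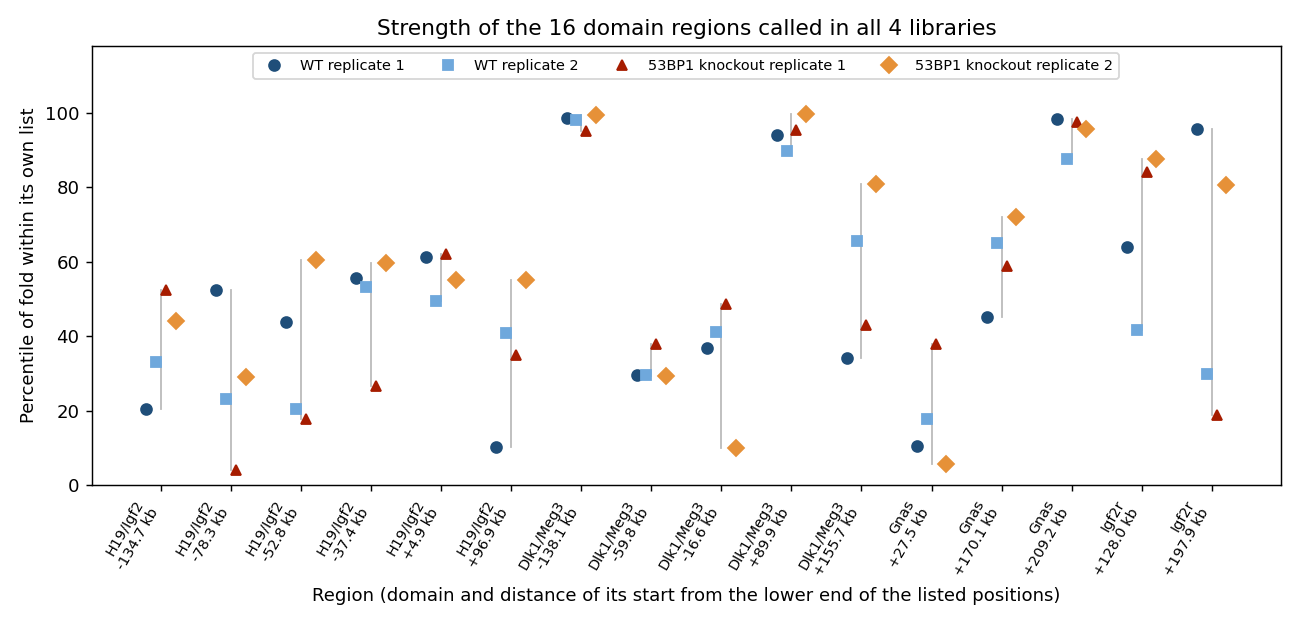
Percentile of fold within its own list (vertical axis) for the 16 regions called in all 4 libraries (horizontal axis, domain and distance in kb), 1 symbol per library, with a grey line over their range. Dlk1 and Meg3 at -138.1 and 89.9 kb and Gnas at 209.2 kb lie at 87.6 or above in every library, while most others spread widely.

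In 3 of the 16 shared regions both knockout percentiles were above both WT percentiles, and in 0 both were below, where the shares over all shared regions were 18.7% and 16.1%. The 3 were the region at 13003008 beyond Igf2r, with a mean difference of 33.0 points, the one at 149626295 below H19 (20.6 and 33.1 in WT, 52.5 and 44.0 in the knockout) and the one at 110780914 at Meg3. Covered length was higher in both knockout libraries in 2 shared regions, at Gnas (174136493) and beyond Igf2r (13072872), and lower in both in 3, where the shares over all shared regions were 18.1% and 15.2%. The 3 narrower ones were the regions at 149723579 below H19 (721 and 776 bp against 710 and 648 bp), at 110846722 above Meg3 and at 13003008 beyond Igf2r. With 2 libraries per genotype none of these differences per region was tested.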

How the data were processed

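Each library had a deposited list of broad peaks. Tools listed in the submitters' processing notes are MACS2 2.2.7.1, Bowtie2 2.4.4, deepTools 3.5.1 and SAMtools 1.15.1, with the build mm9. Settings and input control: not given in the sources used here. Per peak, the authors deposited a fold (a ratio of signal over background), a −log10 p, a −log10 q and a score, of which the score and p served no result except the ranking for equal list lengths.

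Domains, windows and members were chosen with earlier results of these data known. Coordinates were mm9, counted from 1, on the autosomes and X. A peak belonged to a window by an overlap of at least 1 bp. Touching or overlapping peaks of all lists were joined. Tied folds shared the middle percentile. Adjoining windows started at the first peak of each chromosome. Libraries were compared with an exact permutation test over 6 arrangements. Regions named were the strongest and the widest shared region of each domain, shared regions at the listed positions, and those that followed genotype; other named regions were chosen after their values were seen. Merging and tests were checked on simulated data. Python 3.11.15 and NumPy 2.4.6 were used. RefSeq gene order and promoters (GRCm38.p6) were matched by symbol.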

Additional observations from a re-analysis of the deposited data

How the results depend on the processing

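No difference between the genotypes passed an exact permutation test in any setting, since 2 libraries against 2 cannot reach 0.05. Differences are knockout minus WT. Among peaks with −log10 q from 5 up they were −2.5 peaks and −1379.5 bp over all domains and 0 peaks at Igf2r and at Gnas, with 2 regions in all libraries, 0 knockout-only and 0 WT-only. At a fold of at least 4 they were 0 peaks over all domains and 0.5 at Dlk1 and Meg3, with 4 shared and 0 knockout-only regions. With every list shortened to the same 21971 peaks the difference was −0.5 peaks, and 1 region was knockout-only. With a flank of 50 kb it was 0 peaks at Dlk1 and Meg3, with 8 shared, 1 knockout-only and 0 WT-only regions. With no flank it was 0 peaks at H19 and Igf2, at Dlk1 and Meg3 and at Igf2r, with 3 shared, 1 knockout-only and 0 WT-only regions, as fewer regions were counted. Where a library had to cover at least 50% of a region, 10 were shared and 2 WT-only. Shares over all regions are given above for the main setting alone, so these region counts cannot be set against a background. Beyond the construction of these settings, the cause of each change was not tested.

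Leaving out 1 library at a time gave differences of −2.5 to 3.5 peaks over all domains, −3.5 to 0.5 at H19 and Igf2, −1.5 to 0.5 at Igf2r, 1.5 to 5.5 at Gnas and −1 at Dlk1 and Meg3 each time. Covered length ranged from −758 to 4567 bp and the median percentile difference from −2.32 to 16.43. There were 17 to 18 shared, 3 to 8 knockout-only and 1 to 4 WT-only regions. Here a class of the genotype that lost a library rests on its remaining library alone. Shares over all regions are not given for these counts. The largest count of knockout-only regions came without knockout replicate 2, and the largest of WT-only regions without WT replicate 1. The number of domains without a peak, a result added after the data were seen, was 3 in every setting but no flank, where Igf2r made it 4.

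The tests did not pair the libraries by replicate number, although equal numbers share a prefix in the peak names. Differences between numbers 1 and 2 in 2566 windows of 1 Mb had a correlation of 0.02 between WT and knockout. Peak counts from lists of unlike strength cannot settle whether the numbers are pairs, so pairing remains unknown. With a replicate block, averaging within numbers must return the difference of means, 0.5 peaks over all domains. Weak peaks near the limit of each list bound what these data can show, and read depth is unknown.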
